A study of Mus musculus with 2 samples.

Results

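The 6 miRNA genes described here lie in or near the imprinted long non-coding RNA genes Meg3 and Rian on mouse chromosome 12. Mir341, Mir1188 and Mir370 lie inside Rian, and Mir770, Mir673 and Mir493 lie within or shortly downstream of Meg3, called the Meg3 side. They were chosen by name and genomic position and not by their values, although earlier results of these data were known. All 6 were found among the 1973 genes of the count tables. Both samples were stomach tissue of B6NCrl mouse embryos at 14.5 days, with no treatment and no engineered allele stated. They formed 1 group of 2 biological replicates from separate collections. Each label names a stomach of an individual pup but gives its sex as pooled, so a pool cannot be told apart from a single organ. The embryos were not separated by sex, and no condition was compared.

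The Dlk1-Dio3 domain holds protein genes expressed from the paternal chromosome, Dlk1, Rtl1 and Dio3, and non-coding RNA genes expressed from the maternal one. Meg3, the antisense transcript of Rtl1, Rian and Mirg run in the same direction, and the miRNAs are thought to be cut from these long transcripts by Drosha and then Dicer. A miRNA recognises target messages mainly through its seed, bases 2 to 8 from the 5′ end. Aberrant silencing of the maternal transcripts is known from mouse induced pluripotent stem cells with poor developmental potential.

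The mature sequences are shown because both arms of each precursor fall into 1 gene count. All coordinates are on GRCm38 (mm10), the sequences are those of RefSeq for GRCm38.p6, and all 6 members matched by symbol. Capitals mark the seed. On the Meg3 side, in order along the chromosome, the arms are:
miR-770-5p: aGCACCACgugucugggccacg
miR-770-3p: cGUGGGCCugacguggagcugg
miR-673-5p: cUCACAGCucugguccuuggag
miR-673-3p: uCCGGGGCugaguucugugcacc
miR-493-5p: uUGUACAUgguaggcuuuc
miR-493-3p: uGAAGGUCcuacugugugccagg
On the Rian side, they are:
miR-341-5p: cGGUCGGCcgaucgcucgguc
miR-341-3p: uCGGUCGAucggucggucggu
miR-1188-5p: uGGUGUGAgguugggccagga
miR-1188-3p: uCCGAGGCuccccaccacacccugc
miR-370-5p: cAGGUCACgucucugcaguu
miR-370-3p: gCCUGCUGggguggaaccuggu

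The 12 arms carried 12 different seeds, so no 2 members form a seed family. Of the 12, 2 shared their seed with a miRNA of another locus, against 32.0% of the 1738 mature mouse sequences of the same table. The seed of miR-370-5p, AGGUCAC, is also that of miR-1193-3p, whose gene Mir1193 lies in the same imprinted domain (chr12:109715750-109715770 for the mature arm). The pair is shown for comparison, with the seed in capitals:
miR-370-5p: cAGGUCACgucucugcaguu
miR-1193-3p: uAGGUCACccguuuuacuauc
Mir1193 was counted at 5220 in replicate 2 and 6721 in replicate 1, or 1229 ± 161 CPM (counts per 1000000 gene counts, SD, n = 2). The gene counts do not say which arm of Mir370 or of Mir1193 was read. The seed of miR-673-5p is shared with miR-6985-3p of chromosome 19, and Mir6985 had 2 counts in replicate 2 and 1 in replicate 1.

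The genes of the tables held 4679914 counts in replicate 2 and 5004548 in replicate 1, and 361 of the 1973 genes had 10 or more counts in both libraries, called detected here. Markers of the stomach wall and lining were present. The smooth muscle markers Mir143 and Mir145a summed to 146512 CPM in replicate 2, against 164146 in replicate 1, and the 5 epithelial genes of the Mir200 family to 41482 and 41439 CPM. Markers of neighbouring organs were far lower, with liver Mir122 at 65.8 and 56.8 CPM and the 3 pancreatic markers at 5.98 and 6.59 CPM in all. Some markers of other cell types were counted too. In replicate 2 and replicate 1, neural markers summed to 1834 and 1672 CPM and leukocyte markers to 598 and 560 CPM. Of 6 neural markers counted, 1 was detected, Mir137 at a mean of 1750 CPM, and 3 had 0 counts in both libraries. Erythroid markers summed to 218 and 151 CPM and striated muscle markers to 98.9 and 115 CPM. The striated muscle sum came mostly from Mir208b, with a mean of 90.7 CPM. Among the 7 markers counted for striated muscle, 3 were detected and 2 had 0 counts in both libraries. Reads with several genomic matches were given to no gene, and their number equalled 48.4% of those assigned to genes in replicate 2, and 48.7% in replicate 1. None of the 6 members shared a stretch of 20 nt or more with any of the 2201 other miRNA precursors of the annotation, the longest shared stretch being 14 nt. Sequence elsewhere in the genome was not compared. Counts on the strand opposite to the gene were 0 of 16730 for the 6 members together, which allows a share of up to 0.0179%, against 2.74% over all genes.

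All 6 members were detected, and together they reached 1656 CPM in replicate 2, against 1794 in replicate 1. Their sum was 1725 ± 97.8 CPM (SD, n = 2), or 0.173% of all gene counts. They differed widely among themselves, with the mean of Mir341 89.6 times that of Mir1188. A level here is the share of counted miRNA reads. Mature arms of the members are 19 to 25 nt long and give 1 read each, so levels of different genes are set side by side without length scaling. Differences in how well each sequence is captured during library preparation were not measured.

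Mir341, known from rodents, was the most abundant of the 6. It lies at chr12:109611500-109611595 on the plus strand, in an intron of both Rian transcripts that span it, out of 20 Rian transcripts annotated. It was counted 3574 times in replicate 2 and 4632 times in replicate 1, or 764 CPM (95% counting interval 739 to 789) and 926 CPM (899 to 953). Its mean of 845 ± 115 CPM (SD, n = 2) placed it 111th among the 361 detected genes. The hairpin is built of short repeats, and it is shown with the mature arms in capitals:
Mir341: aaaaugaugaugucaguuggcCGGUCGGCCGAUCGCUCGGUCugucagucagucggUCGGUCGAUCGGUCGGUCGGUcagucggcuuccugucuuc
The 4-letter word GGUC, which cannot overlap itself, occurred 7 times in these 96 nt. The word was read from this hairpin and no other word was counted, so the number describes the repeat and is not a ranking of hairpins. Of 1005 mouse hairpins, 24.9% held it at least once and 3.28% at least 2 times. Its reverse complement GACC was absent from the Mir341 hairpin and present in 18.3% of all hairpins. The seeds of both Mir341 arms contain the word, as do those of miR-493-3p and miR-370-5p. The share of all mouse seeds that contain it was not counted.

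Mir370 followed. In human liver cells its 3p arm is known to lower CPT1A, an enzyme of fatty acid import into mitochondria. The gene lies at chr12:109618258-109618336, plus strand, in an intron of 2 Rian transcripts. In 1 of these transcripts all 3 Rian-side genes share an intron. It had 2540 counts in replicate 2 and 2855 in replicate 1, or 543 and 571 CPM. The mean was 557 ± 19.6 CPM, 127th among detected genes, and the 2 libraries lay close together.

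Mir1188 was the rarest member, although its precursor starts 226 bases past the end of Mir341 in the same Rian intron (chr12:109611822-109611941, plus strand). It had 49 counts in replicate 2 and 42 in replicate 1. These correspond to 10.5 CPM (counting interval 7.75 to 13.8) and 8.39 CPM (6.05 to 11.3), a mean of 9.43 ± 1.47 CPM. Mir341 exceeded it 72.9-fold in replicate 2 (95% exact binomial interval 55.1 to 98.8) and 110-fold in replicate 1 (81.5 to 153). Mir370, 6316 bases downstream, exceeded it 51.8-fold in replicate 2 and 68.0-fold in replicate 1. Both contrasts were many times larger than the spread between the libraries. The Mir1188 hairpin is shown with the mature arms in capitals for comparison with that of its neighbour:
Mir1188: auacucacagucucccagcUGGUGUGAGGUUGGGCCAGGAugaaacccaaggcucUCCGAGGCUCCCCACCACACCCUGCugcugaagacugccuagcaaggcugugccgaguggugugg

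On the Meg3 side the members lay within a narrower range. Mir673 was the highest, with 648 counts in replicate 2 and 639 in replicate 1, or 138 and 128 CPM (mean 133 ± 7.62 CPM). Its precursor, at chr12:109571990-109572080 on the plus strand, starts 263 bases past the annotated end of Meg3 and so lies in no annotated Meg3 transcript.

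Mir770 is the sole member of the 6 inside the Meg3 gene, at chr12:109563692-109563785 on the plus strand. Of 11 Meg3 transcripts, 4 span it, and it is intronic in 3 of them and exonic in 1. It had 524 counts in replicate 2 and 422 in replicate 1, or 112 and 84.3 CPM (mean 98.2 ± 19.6 CPM). The distance between its libraries was the widest of the 6 relative to its mean.

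Mir493, which restrains liver metastasis of human colon cancer cells, lies at chr12:109580233-109580315 on the plus strand, 8506 bases past the annotated end of Meg3. It had 415 counts in replicate 2 and 390 in replicate 1, or 88.7 and 77.9 CPM (mean 83.3 ± 7.60 CPM). The descending order of levels was thus Mir341, Mir370, Mir673, Mir770, Mir493 and Mir1188. Values of neighbours in this order did not overlap between libraries, except for Mir770 and Mir493. Those 2 were not ranked by this rule, since Mir770 in replicate 1 was below Mir493 in replicate 2. Within each library Mir770 was the higher, 1.26-fold in replicate 2 and 1.08-fold in replicate 1.

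**Figure D1:**
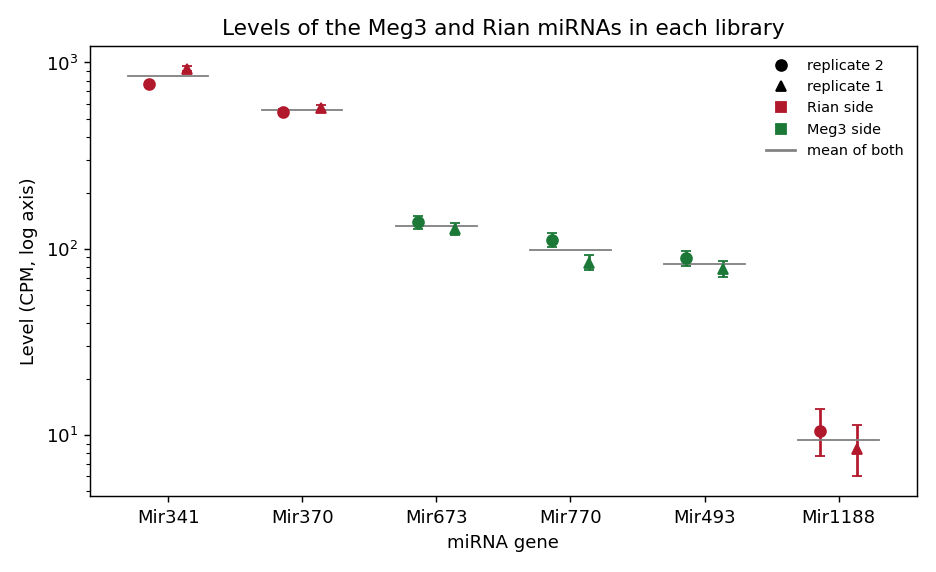
Level of each member in CPM on a log axis, with circles for replicate 2, triangles for replicate 1, bars for the 95% counting interval and a grey line for the mean of both libraries. Mir341 and Mir370 of the Rian side stand above all 3 Meg3-side genes, and Mir1188 of the Rian side stands below them at 9.43 CPM.

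The 3 Rian-side members summed to more than the 3 Meg3-side members. Other miRNA genes before Rtl1 are not in this comparison. The Rian-side genes had 1317 CPM in all in replicate 2 and 1504 in replicate 1 (1411 ± 133 CPM). The 3 Meg3-side genes had 339 and 290 CPM (315 ± 34.8 CPM). The log2 ratio of the Rian-side total over the Meg3-side total was 1.96 in replicate 2 and 2.38 in replicate 1, a mean of 2.17 ± 0.30 or 4.49-fold. This difference exceeded the spread between the libraries, and no exact test over 2 libraries can reach significance. Mir341 and Mir370 made up nearly all of the Rian total. Mir341 held 48.9% ± 3.86 and Mir370 32.3% ± 0.69 of all member counts, while Mir1188 held 0.550% ± 0.12. Without Mir341 and Mir673, the leading gene of each side, the log2 ratio was 1.65 ± 0.26. The Rian side took 79.5% of the member counts in replicate 2 (95% Clopper-Pearson interval 78.6 to 80.4) and 83.8% in replicate 1 (83.1 to 84.6). These intervals do not overlap and cover counting error alone.

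The 6 members were a small part of the miRNA output of the imprinted domain. Between Dlk1 and Dio3 the annotation holds 67 miRNA genes, of which 59 were counted and 51 detected. The members held 2.12% of the counts of these 59 genes in replicate 2 (interval 2.07 to 2.16) and 2.17% in replicate 1 (2.12 to 2.21). Of the 59 genes, 4 had most of their counts on the opposite strand. Without those 4 the share was 2.53%. The median level of the 6 members was 116 CPM, against 452 CPM for the 45 other detected genes of the domain and 139 CPM for all 361 detected genes. Of those 45, 26 were below Mir341, 23 below Mir370 and 12 below Mir673. By mean level, Mir341 was 20th and Mir370 24th of the 59, in the middle of the domain, and Mir673, Mir770 and Mir493 were 36th, 39th and 41st.

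The domain was divided by position into 4 stretches. The stretch before Rtl1, which includes the Meg3-side members, totalled 3100 ± 29.4 CPM over 7 detected genes of 9. Its leading gene was Mir337 at 1696 ± 64.2 CPM, which starts 5473 bases downstream of Mir493 and was counted 20.4 times as high. The stretch within the span of Rtl1 totalled 17502 ± 1273 CPM, led by Mir127 at 9404 ± 223 CPM, a miRNA antisense to Rtl1. From Rtl1 to Mir379 the 3 detected genes were the Rian-side members themselves, at 1411 ± 133 CPM in all. That total is below the 3100 CPM of the stretch before Rtl1. The higher total of the Rian side thus holds for the chosen members and not for all genes of these stretches. The stretch from Mir379 onward totalled 58524 ± 1740 CPM over 36 detected genes, led by Mir411 at 8999 ± 573 CPM. Upstream of Mir341 the nearest counted gene was Mir3071, 16102 bases away on the minus strand, at 355 ± 33.2 CPM.

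Some of the nearest annotated neighbours of the members were not detected. Mir1906-1, 19071 bases upstream of Mir770, Gm23912, 57 bases upstream of Mir370, and Mir882, 63860 bases downstream of Mir370, had 0 counts in both libraries. For uniquely mapped reads, 0 counts leave room for up to 0.641 CPM in replicate 2 and up to 0.599 in replicate 1. This does not bound the level of Mir1906-1, whose precursor shares 80 nt with that of Mir1906-2, so that its reads may map to several places. Gm23912 and Mir882 shared at most 14 nt with any other precursor, and sequence elsewhere in the genome was not compared.

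**Figure D2:**
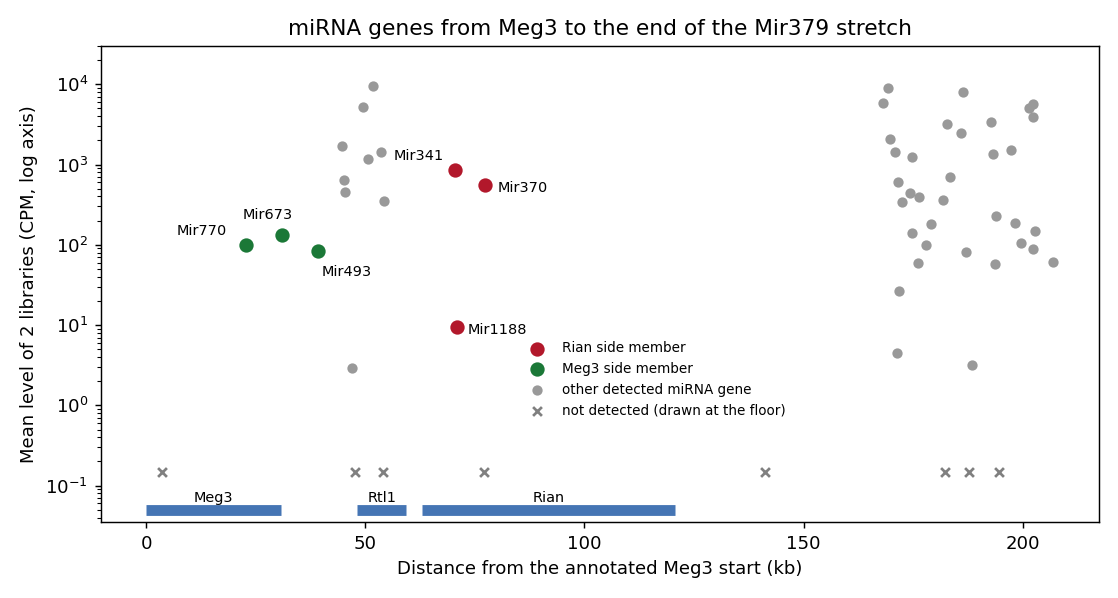
Mean level of the 2 libraries in CPM on a log axis against the distance from the annotated Meg3 start in kb, for counted miRNA genes of the domain. The farthest gene of the stretch from Mir379 onward, at 737 kb, lies beyond the axis and is not drawn. Grey points are other detected genes, crosses are genes not detected, blue bars are the spans of Meg3, Rtl1 and Rian, and Mir341 at 845 CPM stands next to Mir1188 at 9.43 CPM.

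Precursor stability differed among the members. RNAfold gave a minimum free energy per 100 nt of -43.8 kcal/mol for Mir341, -52.3 for Mir370 and -35.2 for Mir1188 on the Rian side, and of -46.5 for Mir673, -61.9 for Mir770 and -54.2 for Mir493 on the Meg3 side. The median of the 1005 mouse hairpins was -40.6 kcal/mol per 100 nt. Mir1188 was the least stable of the 6 per base and the sole member weaker than that median, though 28.7% of all hairpins were less stable still. Its annotated 120 nt folded with 3 loops, while the other 5 precursors gave 1 loop each. That sequence runs on past the 3p arm, and the median hairpin has 79 nt. Its energy per base and its loops thus include bases outside the arms. A link between stability and level was not tested. Mir770 was the most stable of the 6 per base and Mir341 the most abundant, while Mir1188 was both the least stable and the rarest. All 6 hairpins were richer in G and C than the median of 51.7%, from 53.0% in Mir493 to 70.2% in Mir770, which exceeded 97.5% of all hairpins. With 6 genes, this is a description.

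**Figure D3:**
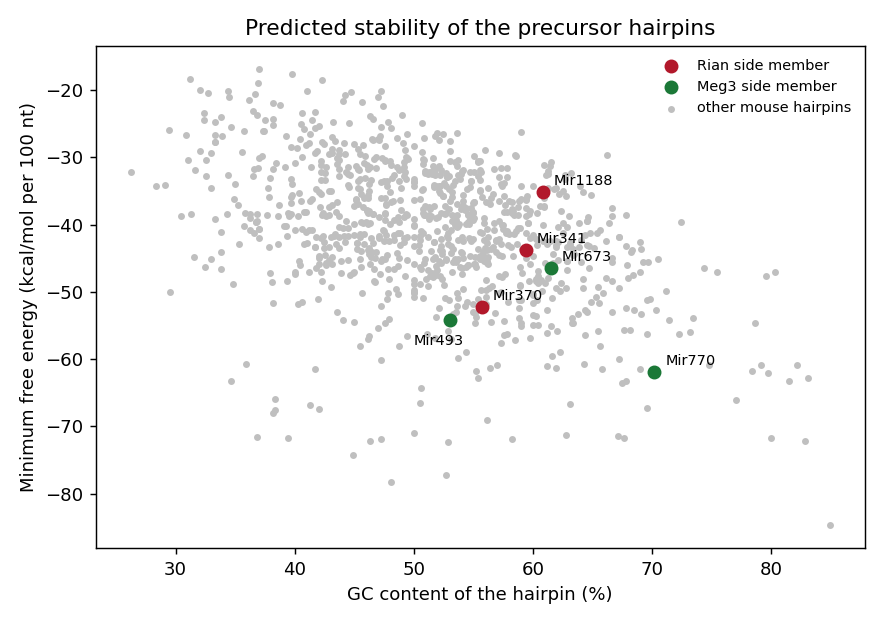
Predicted minimum free energy in kcal/mol per 100 nt against the GC content of the precursor in percent, for 1005 mouse hairpins, with the members in colour. All 6 members lie right of the median GC of 51.7%, and Mir1188 at -35.2 kcal/mol per 100 nt is the least stable of them.

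The libraries were set against each other to ask how far each level held between the stomach samples. A gene was called where the exact conditional binomial test gave an adjusted p below 0.05 and the libraries differed at least 2-fold. No member was called, against 1.11% of the 361 genes. The test compares 2 libraries and not conditions. In tissue RNA, fewer cells of a type and less RNA per cell cannot be told apart.

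By adjusted p alone, 2 of the 6 differed, a share near the 42.1% of all genes. Mir770 was higher in replicate 2, at 112 against 84.3 CPM in replicate 1, as were 24.7% of all genes by this rule. The log2 ratio of replicate 2 over replicate 1 was 0.41 for this gene, with a 95% interval of 0.22 to 0.60 (exact binomial test, Benjamini-Hochberg adjusted p = 5.26e-05). Mir341 was lower in replicate 2, at 764 against 926 CPM in replicate 1. The log2 ratio of this gene was -0.28, with an interval of -0.34 to -0.21 (same exact test, adjusted p = 3.49e-17), and 17.5% of all genes were called in that direction. The small p of Mir341 goes with its high count, and the difference itself was 1.21-fold.

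The remaining members did not pass. The log2 ratio was 0.12 for Mir673 (interval -0.04 to 0.28) and 0.19 for Mir493 (-0.02 to 0.39). It was 0.32 for Mir1188, whose low counts leave an interval of -0.31 to 0.95, and -0.07 for Mir370 (-0.15 to 0.01). Thus 4 of the 6 were above 0, the 3 Meg3-side genes and Mir1188, against 57.1% of all detected genes. Mir341 and Mir370 were below 0. Of the 6 intervals, those of Mir770 and Mir341 alone excluded 0. The median of the 6 was 0.15, against -0.10 for the other 45 detected genes of the domain, 32 of which were below 0, and 0.04 for all detected genes.

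Scaling changed 1 of these calls, and with it the share called. With edgeR's TMM factors Mir370 passed the adjusted p (0.00439, log2 ratio -0.12, exact binomial test), and with DESeq2's size factors likewise (0.000123, log2 ratio -0.16). The members called by adjusted p alone were then 3 of 6, against 46.5% of all genes with TMM factors and 47.9% with size factors. Under these scalings every log2 ratio moved by -0.05 or -0.09, and no member changed sign. The genes called by adjusted p alone were 89 higher in replicate 2 and 63 higher in replicate 1 with total gene counts. They were 74 and 94 with TMM factors, and 58 and 115 with size factors.

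**Figure D4:**
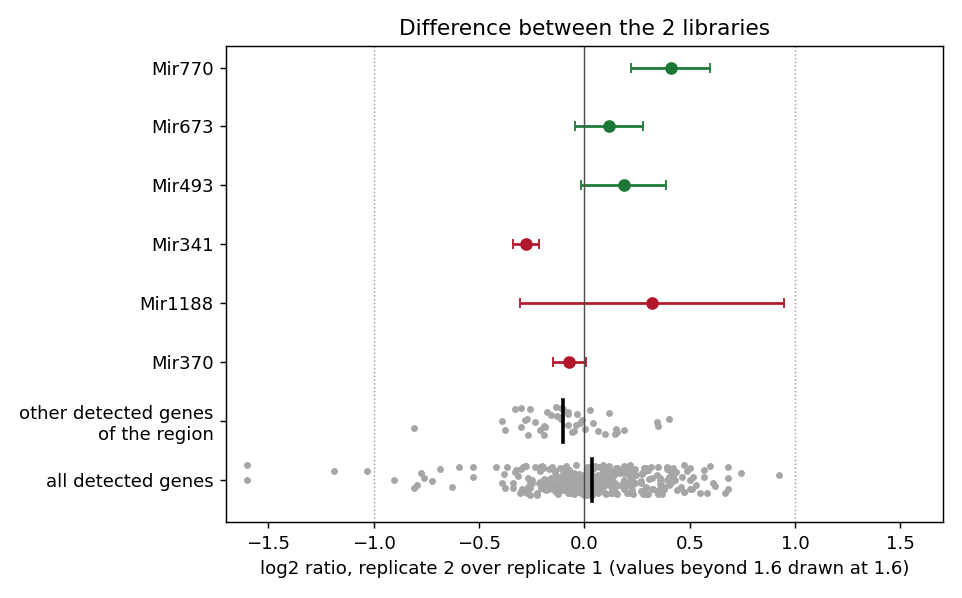
Log2 ratio of replicate 2 over replicate 1 for each member with its 95% interval, above the 45 other detected genes of the domain and all 361 detected genes, whose medians are black bars. Dotted lines mark an absolute log2 ratio of 1, which is a 2-fold difference that no member reached, and values beyond 1.6 are drawn at 1.6.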

How the data were processed

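Small RNA libraries of 2 embryonic mouse stomach samples were analysed as 1 group. The deposited unit is counts per gene, 1 table per library, on mm10 with the GENCODE M4 annotation per the file text deposited beside the tables. For the aligner and the counting program, no name is given in the sources used here. Each table has 3 count columns, of which the strand-specific pair adds up to the remaining one for every gene. That column, counting both strands, was used. The 4 lines that name no gene (unmapped reads at 13.5% of reads in replicate 2 and 12.5% in replicate 1, reads mapping to several places at 27.4% and 27.8%, reads outside genes at 2.32% and 2.50%, ambiguous reads at 0) were left out of totals.

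Symbols and positions came from GENCODE M21 by identifier without version, for 1894 of 1973 genes. CPM is the count per 1000000 gene counts. Counting intervals are 95% exact Poisson or Clopper-Pearson intervals. Reads carry no molecular identifiers, so intervals and the limit allowed by 0 (3 counts) cover counting error only. Libraries were compared with a two-sided exact conditional binomial test (scipy 1.17.1), adjusted over the 361 genes with 10 or more counts in both. The procedure was tested on simulated counts with Poisson error alone, which hold no variation between biological replicates. A quasi-likelihood test has no contrast with 1 group. Alternatives used edgeR 4.0.16 and DESeq2 1.42.0 for scaling. Hairpins were folded with RNAfold 2.7.2. The genes named are the members, their nearest counted neighbours in the domain, genes sharing a seed, the leading gene of each stretch, and tissue markers. The members and lists were chosen with earlier results of these data known.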

Additional observations from a re-analysis of the deposited data

How the results depend on the processing

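The alternatives were other scalings, the annotated strand alone, other minimum counts, and each library alone. Scaled to all reads of the table, unmapped and multiply mapped reads included, the totals fell by construction, to 982 CPM for the 6 members, 803 CPM for the Rian side and 179 CPM for the Meg3 side. From 1 library at a time they ran from 1656 to 1794 CPM for the members, from 1317 to 1504 CPM for the Rian side and from 290 to 339 CPM for the Meg3 side. The log2 ratio of the Rian side over the Meg3 side ran from 1.96 to 2.38, and was 1.65 without the most abundant gene of each side. The members' share of the domain ran from 2.12% to 2.17%, and was 2.53% both with the annotated strand alone and without the genes counted mostly on the opposite strand. The count of genes called between libraries was 4, 7 with a minimum of 1 count, and 152 by adjusted p alone. No member's log2 ratio changed sign in any alternative run. Leaving out members that share sequence could not be run, since there was none. No paired analysis was possible because there is 1 group. Mir1188, with 49 and 42 counts, is the member whose depth limits any statement on differences between libraries.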
